A study of Homo sapiens with 19 samples.

Results

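HMGCS1, IDI1, FDFT1, SQLE, LSS, DHCR7 and INSIG1, 6 enzymes of cholesterol synthesis and 1 regulator of the pathway, were followed in human liver organoids. The 7 genes were chosen by name as targets of the transcription factor SREBP2, with earlier results of these data known. They were matched by Ensembl identifier, out of 32703 gene identifiers listed in all 19 libraries. The organoids were grown from W01, a wild-type human pluripotent stem cell line, and dissociated for droplet single-cell RNA sequencing (10x Genomics 3′ v3). Counts of unique molecular identifiers (UMIs, 1 per captured transcript) were summed over the cells of a library, and a level is given as UMIs of a gene per 1000000 UMIs of the library (CPM).

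The 19 libraries fell into 9 groups, and all shared the W01 line and its genotype. Untreated organoids on ultra-low attachment plates (ULA) were taken on day 21 (n = 3) and day 34 (n = 2). Organoids on an orbital shaker (OS) were taken on day 25 in 7 groups of 2 libraries: untreated, TGFB1 at 10 ng/ml with its own control, PA at 500 µM with its own control, and OA at 500 µM with its own control. PA and OA are kept as abbreviations because the labels do not spell them out. The labels state 20 days of culture and then 5 days of treatment, and their treatment text names TGFB1 and PA but not OA. Dissociation also differed: day 21 ULA organoids skipped a wash that the others received and spent 10 fewer minutes in trypsin. Nothing in the labels says that replicates came from separate cultures, so p-values measure the spread between these libraries, which may be technical, and all results are from 1 line.

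Cholesterol is built from acetyl-CoA through mevalonate, isoprenoid diphosphates, squalene and lanosterol. When sterol in the endoplasmic reticulum is low, SCAP carries SREBP2 to the Golgi, where proteases release the part that enters the nucleus and turns on these enzymes and genes of sterol uptake. INSIG proteins hold SCAP back when sterol is high, and INSIG1 is itself a target, so that the pathway limits its own output.

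The depth of the libraries was uneven. After cells with under 500 detected genes or over 20% mitochondrial counts were left out, 120240 cells of 138053 deposited barcodes remained, and a library held 6880807 to 91184130 UMIs. The median per kept cell ran from 1310 UMIs in TGFB1 control replicate 1 to 14304.5 in ULA day 34 replicate 1; PA control replicate 1 (1747) and untreated replicate 2 (2288) were also shallow. No pair of libraries shared more than 0.553% of the barcodes of the smaller one. Of the liver markers, AFP ranged from 2.96 CPM in ULA day 34 replicate 1 to 5871 in OA replicate 1, and ALB was under 1 CPM in both TGFB1 and both day 34 ULA libraries. The sum of the 18 hepatocyte markers did not follow ALB with TGFB1, at 5099 ± 581 CPM against 4118 ± 1197 in its control. All 18 hepatocyte markers were detected in every group, beside gut epithelial, ductal and mesenchymal markers, so the levels below are those of mixed organoids. In such sums, fewer cells of a type and less RNA per cell cannot be told apart.

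The sequences before the start sites of 3 of the genes are shown because HMGCS1 and INSIG1 had the largest rises with OA, while DHCR7 was not called. They are the 250 bases before the RefSeq start (GRCh38.p14, in the direction of the gene), at chr5:43313413-43313662 (minus strand), chr7:155297628-155297877 (plus strand) and chr11:71448394-71448643 (minus strand). Capitals mark CCAAT, the core box of NF-Y, a factor that binds next to SREBP in several sterol-regulated promoters, on either strand, where the other strand reads ATTGG.
HMGCS1: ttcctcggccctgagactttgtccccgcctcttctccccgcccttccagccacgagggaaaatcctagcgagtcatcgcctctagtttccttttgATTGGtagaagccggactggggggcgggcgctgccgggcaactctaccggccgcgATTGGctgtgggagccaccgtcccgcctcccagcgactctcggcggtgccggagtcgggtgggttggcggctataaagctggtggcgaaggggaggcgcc
INSIG1: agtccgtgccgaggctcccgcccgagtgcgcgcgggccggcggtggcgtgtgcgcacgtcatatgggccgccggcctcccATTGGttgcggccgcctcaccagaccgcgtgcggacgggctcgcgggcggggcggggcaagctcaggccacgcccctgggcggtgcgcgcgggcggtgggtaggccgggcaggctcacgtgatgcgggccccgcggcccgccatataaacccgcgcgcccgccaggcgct
DHCR7: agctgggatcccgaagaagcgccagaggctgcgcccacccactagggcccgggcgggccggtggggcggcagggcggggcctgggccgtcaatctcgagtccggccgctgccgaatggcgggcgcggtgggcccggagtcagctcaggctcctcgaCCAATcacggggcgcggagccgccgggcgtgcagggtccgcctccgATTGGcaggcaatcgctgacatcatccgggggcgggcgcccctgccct
The box occurs 2 times in HMGCS1 (first bases 155 and 100 before the start), 1 time in INSIG1 (170 before) and 2 times in DHCR7 (94 and 48 before). The RefSeq table gave 9 windows for 5 members, each for its own start site, and the first listed is printed for these 3 genes. LSS, which like DHCR7 was not called with OA, held 1 box in its 1 window. For IDI1 the first of 3 windows, whose start lies 7585 bases before the GENCODE gene model, held none, and the others, with starts inside that model or at its edge, held 3 and 2. The second windows of HMGCS1 and DHCR7 held none. The start printed for DHCR7 is that of 2 of its 20 GENCODE transcripts and lies 4475 bases inside the gene model. SQLE and FDFT1 were not in the table. Over all 35116 windows, each from 250 bases before to 50 after the start, 34.6% held CCAAT, 44.95% held the Sp1 box GGGCGG and 3.95% held TCACNCCA, a sterol regulatory element, each searched on both strands. TCACNCCA matched none of the 9 windows. A match is only a run of letters, and a missing match says only that these letters are not in this window.

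All 7 genes were measured in each library, but they did not follow one order across the 9 groups. HMGCS1 was highest with OA (226 ± 22.4 CPM, SD, n = 2) and in ULA organoids on day 21 (220 ± 10.6, n = 3), and lowest with TGFB1 (26.1 ± 2.95, n = 2). INSIG1 was likewise highest with OA (106 ± 13.1) and lowest with TGFB1 (7.75 ± 0.227), a ratio of 13.6 between the group means. SQLE (276 ± 20.0), IDI1 (197 ± 25.4), FDFT1 (291 ± 17.9) and DHCR7 (114 ± 13.3) were highest in ULA organoids on day 21. LSS was highest in ULA organoids on day 34 (39.4 ± 0.137) and lowest with TGFB1 (14.9 ± 2.34). The range between the highest and lowest group mean was narrowest for LSS (2.64-fold) and SQLE (2.88-fold).

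Most neighbours in these orders did not separate. Of the 8 neighbouring pairs of groups for each gene, the libraries stood apart in 4 for HMGCS1, in 2 for FDFT1 and in 3 for each of the other genes. For HMGCS1, the libraries of OA, ULA day 21, ULA day 34 and untreated organoids overlapped from each group to the next. PA and its control overlapped as well. The matrices listed 58721 genes for ULA, 36601 for OA, its control and untreated, and 33538 for TGFB1, PA and their controls, so these 3 sets differ in the reference used to count as well as in experiment. CYP51A1, the lanosterol demethylase, stood at 116 to 527 CPM in the 6 libraries of the second set and at 3.49 to 13.7 CPM in the other 13, and the part of the reference was not tested.

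**Figure D1:**
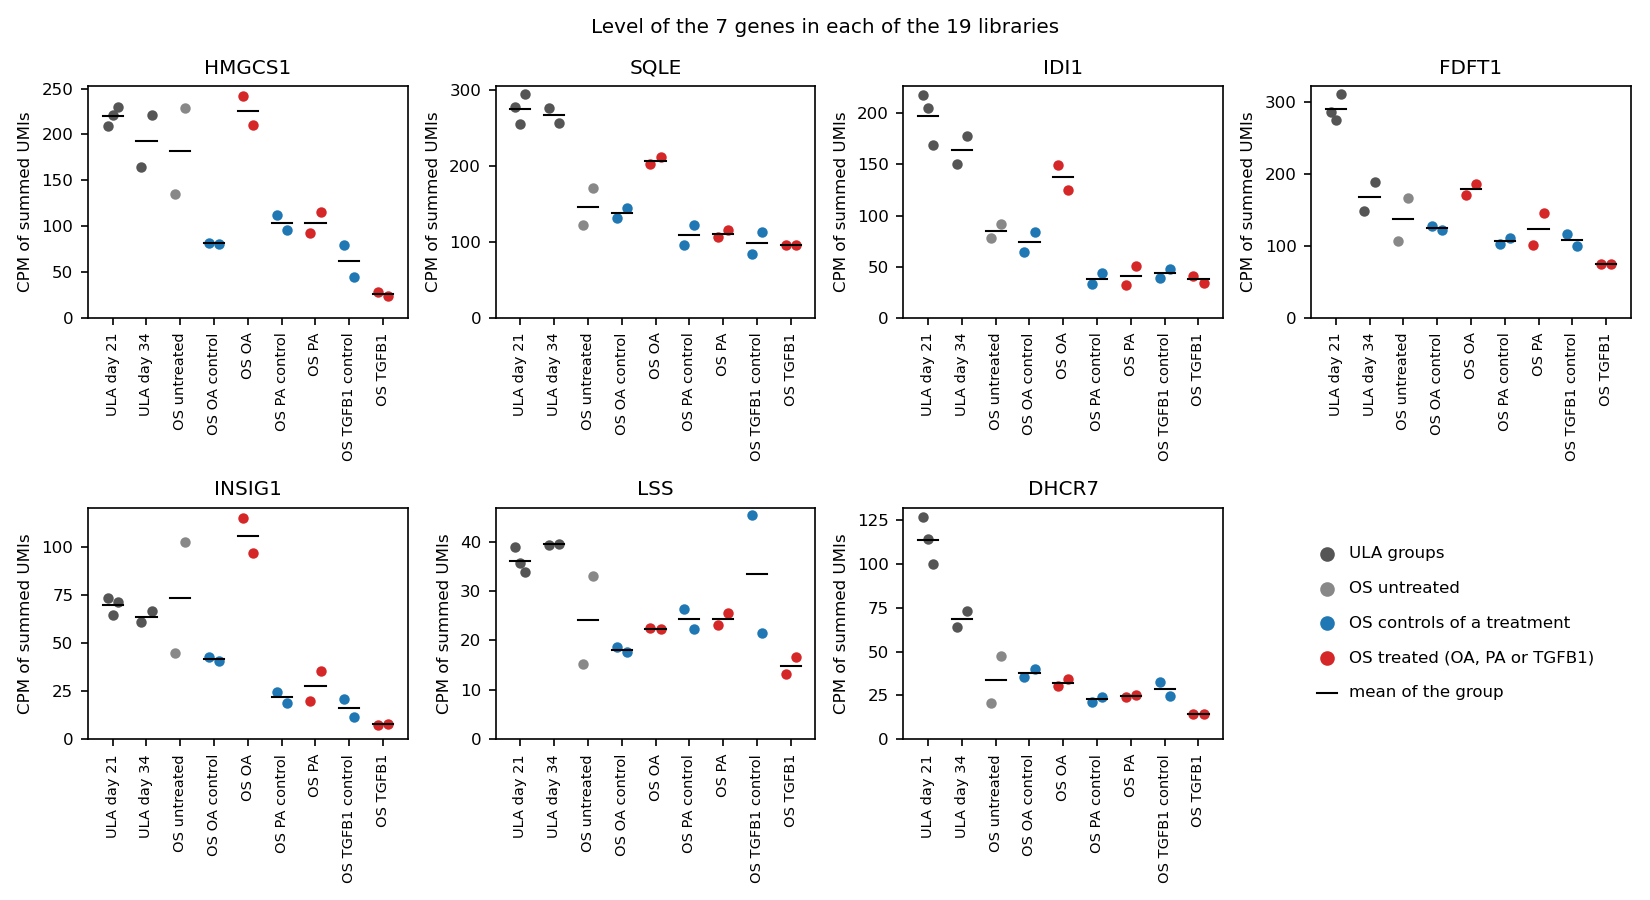
Level of each gene (y axis, CPM of summed UMIs, from 0) in the 19 libraries (points) of the 9 groups (x axis), with the group mean as a line. OA libraries stand above their controls for all but DHCR7 (LSS without a call), and the untreated replicates lie far apart for INSIG1 (44.6 and 102 CPM).

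With OA, 5 of the 7 genes were called higher than in its own control, where 43.3% of all genes passed and 21.7% were called higher. These are sums over whole libraries whose cells also differed, as given below. HMGCS1, the enzyme that makes HMG-CoA at the entry to the mevalonate arm, stood at 242 and 210 CPM in OA replicates 1 and 2 and at 82.0 and 81.0 CPM in the controls. Both OA libraries lay above both controls, and its log2 fold change was 1.81 (SE 0.302, adjusted p = 0.000391, edgeR's quasi-likelihood test with Benjamini-Hochberg adjustment). IDI1, which isomerises isopentenyl diphosphate, stood at 150 and 125 CPM with OA against 64.8 and 83.9 CPM in the controls. Its log2 fold change was 1.23 (SE 0.259, edgeR adjusted p = 0.00199), and the groups did not overlap.

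The enzymes around squalene rose as well. FDFT1, squalene synthase, stood at 171 and 187 CPM with OA against 128 and 123 CPM. Its estimate was 0.85 on the log2 fold scale (SE 0.249, edgeR adjusted p = 0.0145). SQLE, squalene epoxidase, stood at 202 and 212 CPM against 132 and 145 CPM, with an estimate of 0.92 (SE 0.240, edgeR adjusted p = 0.00757). In both genes the OA libraries lay above the controls without overlap. INSIG1, the sterol-dependent brake on SREBP2 processing, stood at 115 and 96.4 CPM against 42.6 and 40.6 CPM. Its estimate of 1.68 on the log2 fold scale (SE 0.387, edgeR adjusted p = 0.00363) was close in size to that of HMGCS1.

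The sterol-forming members did not pass the test. LSS, which closes squalene epoxide into lanosterol, stood at 22.5 and 22.3 CPM with OA against 18.7 and 17.6 CPM, with a log2 fold change of 0.64 (95% interval -0.12 to 1.39, edgeR adjusted p = 0.16). DHCR7, the last reductase of one branch of the pathway, stood at 30.3 and 34.4 CPM with OA against 35.4 and 40.0 CPM. Here the OA libraries lay below the controls in CPM, and the fitted log2 fold change was 0.12 (95% interval -0.52 to 0.77, edgeR adjusted p = 0.773). The sign differs because the fit scales libraries by TMM: the median log2 fold change of all genes was -0.08 under TMM and -0.42 with library size alone, and DHCR7 came to -0.22 under the latter.

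The count of 5 of 7 has to be read against a wide change, since 43.3% of the 19366 genes tested passed the same threshold with OA. The 7 genes were also chosen with earlier results of these data known, so their share is not that of an independent pick. The median log2 fold change of the members was 0.92, and that of all genes was -0.08. Without OA control replicate 2 the count fell to 3, SQLE and FDFT1 being lost, and the call for FDFT1 was also lost without OA replicate 1 (edgeR adjusted p = 0.0515), without OA replicate 2 (0.0722) and with library size alone (0.091). The calls for HMGCS1, IDI1 and INSIG1 were not lost in any of the left-out-library fits.

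**Figure D2:**
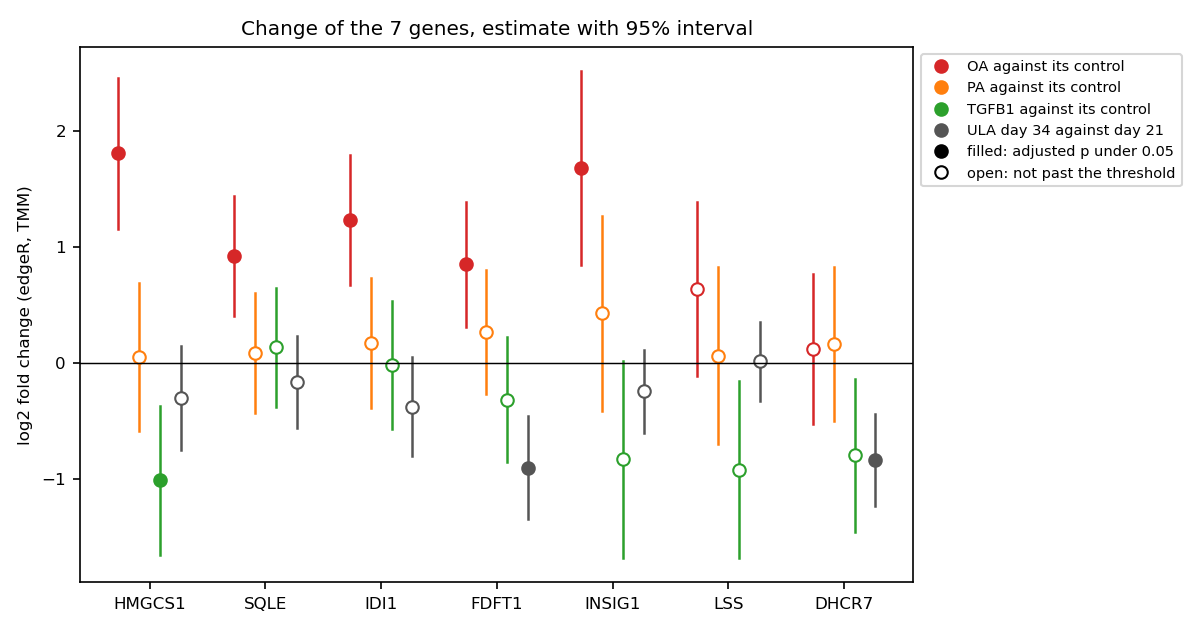
Log2 fold change (y axis) of each gene (x axis) with its 95% interval in 4 comparisons, filled where the adjusted p was under 0.05. Only OA gives estimates whose intervals lie above 0, for HMGCS1, SQLE, IDI1, FDFT1 and INSIG1. The filled points below 0 are HMGCS1 with TGFB1 (-1.01) and FDFT1 and DHCR7 in ULA organoids.

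The cells present also differed between the OA and control libraries. Mesenchymal-like clusters held 0.899% and 0.511% of cells with OA and 31.5% and 40.5% in the control, and the 14 mesenchymal markers summed to 397 ± 32.7 against 6585 ± 2169 CPM. The 14 gut epithelial markers summed to 20436 ± 1377 CPM with OA against 3149 ± 1158, and the 18 hepatocyte markers to 25510 ± 669 against 11294 ± 2577. The hepatocyte sum is not a share of hepatocyte-like cells. Gut epithelial-like cluster 11 also had 3 hepatocyte markers, APOC3 among them, in its 50 leading genes. The 10 cycling markers summed to 188 ± 9.13 CPM with OA against 551 ± 27.3, and the 9 neural markers to 93.2 ± 9.01 against 240.5 ± 59.4. When mesenchymal-like clusters were set aside in both groups, the test in all other cells called 6 of 7 genes higher, where 54.5% of genes were called. HMGCS1 was at 1.72 (SE 0.138, edgeR adjusted p = 0.000538), INSIG1 at 1.59 (SE 0.143, adjusted p = 0.000703) and LSS at 0.47 (SE 0.112, adjusted p = 0.0157) on the log2 fold scale. The call for LSS was lost without OA replicate 1 (edgeR adjusted p = 0.0822), without OA replicate 2 (0.0577) and with library size alone (0.213). DHCR7 remained without a call (-0.03, edgeR adjusted p = 0.833). OA left under 50 mesenchymal-like cells per library, so no test was made in them.

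Among the other cells the 2 groups still occupied different clusters. Clusters 6 and 11, gut epithelial-like, held 71.0% and 81.1% of OA cells and 1.34% and 1.46% of control cells. In cluster 11, led by APOA4, FABP2 and KRT20, INSIG1 stood at 129 CPM in each OA library, and in cluster 6, led by GUCA2A and OLFM4, at 51.98 and 54.1 CPM. HMGCS1 differed less between them, with 240 and 228 CPM in cluster 11 and 250 and 202 CPM in cluster 6. Hepatocyte-like cluster 10 had 108 cells in OA replicate 1 and 4 in replicate 2, and in replicate 1 HMGCS1 reached 519 CPM and INSIG1 361 CPM there.

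The 5 clusters numbered 0, 3, 4, 14 and 16 held at least 50 cells in each of the 4 libraries. They covered 23.1% and 16.7% of OA cells and 53.3% and 35.0% of control cells. HMGCS1 lay above both controls in both OA libraries in each of the 5, a pattern held by 12.0% of the 6276 genes with a mean of at least 10 CPM in every one of them. In cluster 4 (ductal-like) HMGCS1 stood at 121 and 113 CPM with OA against 46.8 and 34.1 CPM, and in cluster 3 (gut epithelial-like) at 160 and 167 CPM against 88.7 and 73.8 CPM. In cluster 14, led by KRT5 and KRT6A, the gap was small, at 52.1 and 38.0 CPM against 34.7 and 34.8 CPM.

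Of the 5 genes called in whole libraries, INSIG1, SQLE, IDI1 and FDFT1 did not keep that pattern in all of these clusters. INSIG1 lay above the controls without overlap in cluster 14 (12.8 and 18.99 against 11.8 and 11.9 CPM), below them in cluster 16, led by cell cycle genes (42.6 and 48.2 against 55.8 and 74.0 CPM), and overlapped in the other 3. SQLE was above in cluster 4 (103 and 130 against 71.1 and 73.2 CPM), below in cluster 16 (183 and 173 against 215 and 244 CPM) and overlapped elsewhere. IDI1 was above in clusters 0 and 4 and below in the other 3. FDFT1 was above in clusters 4 and 16 and overlapped in the other 3, and LSS was above in 2, below in 2 and overlapped in 1. DHCR7 was below the controls without overlap in 4 of the 5, as were 16.3% of the same 6276 genes in at least 4, and in cluster 16 it stood at 31.3 and 36.5 CPM against 63.3 and 78.6 CPM. The clusters were chosen by their cell numbers and these values carry no test. They are CPM without the TMM scaling of the whole-library calls, so being above or below here is not on the scale of those calls. The part of this scaling in the clusters was not tested. The smallest count behind the values was 3 UMIs, for LSS in cluster 3 of OA replicate 1, where 60 cells remained.

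**Figure D3:**
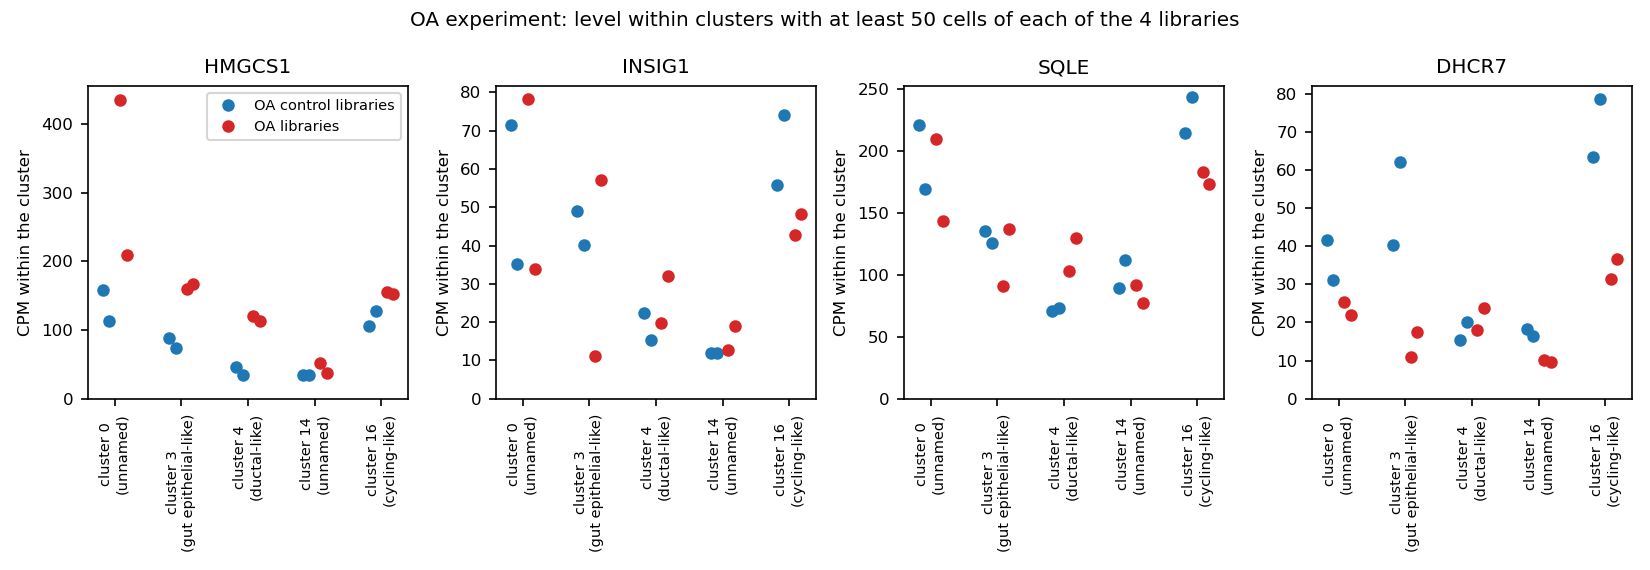
Level of 4 genes (y axis, CPM within the cluster, from 0) in the 5 clusters (x axis) with at least 50 cells of each OA and OA control library (points). HMGCS1 is above the controls in every cluster, INSIG1 and SQLE are not, and DHCR7 is below them in 4 of 5.

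The wider pathway was read from lists of 56 further genes, also chosen with earlier results of these data known. With OA 43.3% of all genes tested passed and 21.7% were called higher, so a list's share near these is no result about that list. Of the 56 genes, 15 were higher with OA and 3 lower, so the lists together were called no more often than all genes. In the mevalonate arm 2 of 6 other enzymes rose with OA and none fell: FDPS, which makes farnesyl diphosphate (log2 fold change 1.51, edgeR adjusted p = 0.000494), and MVD, which makes isopentenyl diphosphate (0.70, adjusted p = 0.0445). In the sterol arm 6 of 8 rose and none fell, with a list median of 0.99. CYP51A1 (2.37, edgeR adjusted p = 0.00017), MSMO1 (1.83, adjusted p = 0.000445) and SC5D (1.70, adjusted p = 3.28e-05) led it, and EBP, LBR and NSDHL passed as well.

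None of the 8 genes of SREBP2 processing, SREBF2 among them, passed with OA. SREBF2 itself stood at 46.3 ± 1.69 CPM against 37.5 ± 0.065. Of 7 uptake and transport genes, 2 rose: NPC1, which exports sterol from lysosomes (1.58, edgeR adjusted p = 5.98e-05), and STARD4, a sterol carrier (1.15, adjusted p = 0.00347). Among 10 tested genes of efflux, LXR and esterification, ABCG1 (2.90, adjusted p = 7.38e-06), SOAT2 (2.40, adjusted p = 0.00795) and NR1H3 (1.09, adjusted p = 0.0139) rose. SOAT2 rested on few counts, 114 and 31 in OA replicates 1 and 2 against 21 and 14 in the controls. CH25H fell, with 28 and 20 counts in the controls and 0 in both OA libraries, a level at least 7.68-fold lower when 3 counts per library are allowed. DHDDS, of 8 genes of the non-sterol branch, rose (0.88, adjusted p = 0.011). Of 8 genes of fatty acid synthesis, ELOVL6 rose (1.94, adjusted p = 1.01e-05), while the desaturases FADS1 (-1.05, adjusted p = 0.000316) and FADS2 (-0.91, adjusted p = 0.0337) fell.

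**Figure D4:**
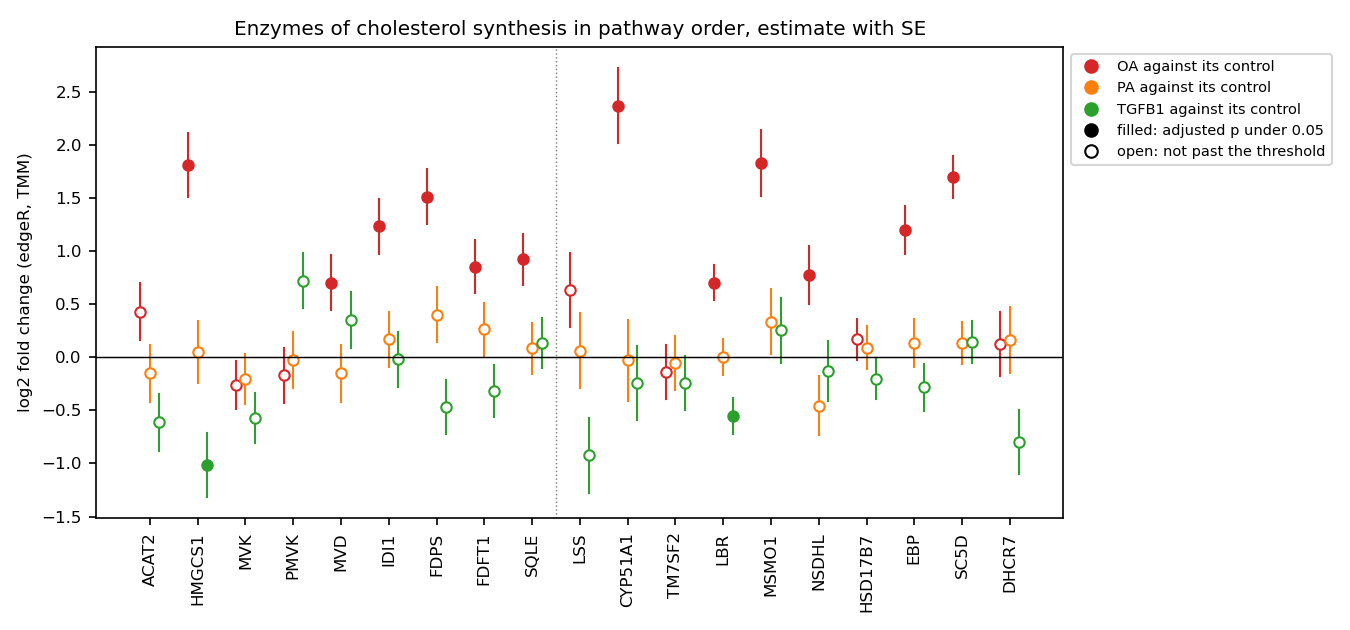
Log2 fold change (y axis) with its SE for enzymes in pathway order (x axis), for OA, PA and TGFB1 each against its own control, filled where the adjusted p was under 0.05; the dotted line parts the steps up to squalene epoxide from the sterol-forming steps. OA points are filled except at ACAT2, MVK, PMVK, LSS, TM7SF2, HSD17B7 and DHCR7, no PA point is filled, and HMGCS1 is lowest with TGFB1 (-1.01).

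PA, given at the same 500 µM, called none of the 7 genes. HMGCS1 stood at 92.3 and 116 CPM with PA and at 112 and 95.6 CPM in its control, and INSIG1 at 20.1 and 35.6 against 24.6 and 18.9 CPM. The groups overlapped for each of these 2 genes, and PA replicate 2 was the higher of the pair in both. The fitted log2 fold changes of the 7 genes were between 0.05 and 0.43 (edgeR adjusted p = 1 for each), with 95% intervals that reached 0.69 for HMGCS1 and 1.27 for INSIG1. Little else was called: 9 genes, 0.0465% of those tested, passed, and 540 had an unadjusted p under 0.05. None of the 7 had an unadjusted p under 0.05, and DESeq2 also called none of them. In each of the 7 other lists no gene passed; FDPS (0.40, unadjusted p = 0.141) had the smallest p of the mevalonate list.

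Split by cell class, PA again called none of the 7 genes. In mesenchymal-like cells, where 0.00914% of genes were called, the estimates were between 0.19 and 0.48, and in all other cells, with 0.115% called, between 0.01 and 0.47. None had an unadjusted p under 0.05, and DESeq2 called none of them in either. Cluster by cluster, without a test, PA libraries lay above both controls for 5 of 7 genes in mesenchymal-like cluster 2 (background 11.6% of 8210 genes) and for 4 of 7 in gut epithelial-like cluster 3 (background 7.66% of 7713). In cluster 2, SQLE stood at 194 and 181 against 128 and 155 CPM and FDFT1 at 162 and 182 against 139 and 111 CPM. In cluster 3, INSIG1 stood at 41.0 and 72.6 against 28.8 and 23.2 CPM, and HMGCS1 overlapped, at 106 and 175 against 108 and 94.9 CPM. PA libraries lay below both controls for 4 of 7 genes in cycling-like cluster 1 (SQLE, FDFT1, INSIG1 and LSS, background 13.5% of 8312) and for 4 of 7 in unnamed cluster 5 (HMGCS1, SQLE, INSIG1 and LSS, background 13.0% of 8166). SQLE stood at 94.8 and 105 (PA) against 121 and 157 CPM in cluster 1. The direction was thus not shared between clusters, and clusters 1, 2, 3 and 5 were singled out after their values were seen. Among the genes counted in clusters 1 and 5, the fewest UMIs in a library were 7 (LSS) and 9 (INSIG1). In clusters 2 and 3 they were 13 and 24, both for DHCR7. Over all 10 clusters with enough cells, SQLE lay above the controls in 2, below in 2 and overlapped in 6, and HMGCS1 lay above in 1, below in 3 and overlapped in 6.

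OA and PA form 1 pair of agents at a matched dose, compared for each of the 7 genes by the difference of their effects. HMGCS1 alone passed: its log2 fold change with OA exceeded that with PA by 1.76 (95% interval 0.86 to 2.66, edgeR adjusted p = 0.0104), where 20.5% of all genes passed. IDI1 (1.07, 95% interval 0.28 to 1.85, adjusted p = 0.0553), INSIG1 (1.26, interval 0.08 to 2.43, adjusted p = 0.12) and SQLE (0.84, interval 0.11 to 1.57, adjusted p = 0.0966) did not pass after adjustment over 19366 genes. DESeq2 called 3 genes here and the fit of the 4 groups alone called 4, and IDI1 also passed without PA replicate 2 (adjusted p = 0.0198), so the count of 1 depends on the model. For DHCR7 the difference was -0.04, with an interval from -0.97 to 0.89 that holds changes of either sign. In the mevalonate list 1 of 6 genes differed, FDPS (1.11, edgeR adjusted p = 0.0452), higher with OA. In the sterol list 5 of 8 did, all higher with OA: SC5D (1.56, adjusted p = 0.00218), CYP51A1, MSMO1, EBP and NSDHL, where CYP51A1 was counted against different references in the OA and PA sets. NPC1 (1.47, adjusted p = 0.00383), ABCG1 (3.55, adjusted p = 0.000136) and ELOVL6 (1.65, adjusted p = 0.00132) were also higher, and FADS1 (-1.29, adjusted p = 0.00269) and CH25H (adjusted p = 0.0246) lower. CH25H had only 2 counts in each PA library and 0 and 1 in the PA controls. These differences are made from the same libraries as the separate comparisons. Of the 56 genes of the lists, 9 were higher and 2 lower, a share near the 20.5% of all genes.

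The control of OA was also set against untreated organoids, which share those control libraries with the OA comparison. None of the 7 genes passed with edgeR, where 0.573% of genes did. HMGCS1 stood at 82.0 and 81.0 CPM in the OA control against 135 and 229 CPM in untreated organoids, without overlap. Its log2 fold change was -1.03 (SE 0.296, unadjusted p = 0.00401, edgeR adjusted p = 0.137), and DESeq2 did call it (adjusted p = 0.0274). Its level with OA, 242 and 210 CPM, overlapped the untreated range. INSIG1 was 44.6 and 102 CPM in untreated replicates 1 and 2, and for all 7 genes replicate 2, the shallower library, was the higher. These replicates also held different cells: gut epithelial-like cluster 3 took 3.67% of replicate 1 and 42.3% of replicate 2, and clusters 5, 15 and 17 took 0.011%, 0% and 0% against 1.40%, 4.25% and 1.73%. AFP was at 2297 ± 93.2 CPM in untreated organoids and at 481 ± 33.7 in the OA control, while the hepatocyte markers summed to 12154 ± 201 and 11294 ± 2577 CPM. The part of depth and of these cells was not tested. Without untreated replicate 2, DHCR7 was higher in the OA control (1.08, edgeR adjusted p = 0.0371). In the other lists no gene passed, and LBR (-0.64, edgeR adjusted p = 0.104) had the smallest p.

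TGFB1 lowered 1 of the 7 genes, HMGCS1, where 22.2% of all genes passed. HMGCS1 stood at 28.1 and 24.0 CPM with TGFB1 against 79.1 and 44.2 CPM in the control, without overlap. Its log2 fold change was -1.01 (SE 0.298, edgeR adjusted p = 0.0278). DHCR7 (14.2 and 14.3 against 32.6 and 24.7 CPM, log2 fold change -0.80, adjusted p = 0.078), LSS (13.3 and 16.6 against 45.3 and 21.5 CPM, -0.92, adjusted p = 0.0777) and INSIG1 (7.59 and 7.91 against 20.8 and 11.7 CPM, -0.83, adjusted p = 0.145) lay below both controls but did not pass. SQLE (0.14) and IDI1 (-0.02) were near 0, with overlapping groups, and FDFT1 had an estimate of -0.32 (75.2 and 75.0 against 116 and 99.3 CPM).

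The count of 1 depends on the model: LSS also passed with DESeq2, LSS and DHCR7 with library size alone, INSIG1, LSS and DHCR7 without the low-count filter, and DHCR7 with only the groups compared, all lower. The call for HMGCS1 depends on single libraries. Without TGFB1 control replicate 1 its log2 fold change was -0.67 (edgeR adjusted p = 0.236), and it was also lost without TGFB1 replicate 1 (-1.13, adjusted p = 0.104) or replicate 2 (-0.89, adjusted p = 0.166). Without control replicate 2, LSS passed as well (-1.29, adjusted p = 0.0239). Control replicate 1 is the shallowest library by UMIs per cell and had the higher level of HMGCS1, LSS, INSIG1, DHCR7 and FDFT1; the part of its depth was not tested. The mesenchymal markers summed to 8054 ± 498 CPM with TGFB1 against 2004 ± 605, the cycling markers to 47.9 ± 2.04 against 572 ± 127 and the gut epithelial markers to 190 ± 6.64 against 888 ± 11.5. The squamous markers summed to 154 ± 0.39 against 12.1 ± 3.98 CPM. The 10 markers listed for macrophages and other immune cells summed to 39.8 ± 8.53 against 216 ± 20.0 CPM. No cluster of this experiment was named for that class, and 3 of its 10 markers were at 0 with TGFB1, so this sum does not show immune cells. The hepatocyte markers were at 5099 ± 581 against 4118 ± 1197 CPM. This sum did not follow the share of hepatocyte-like cells, since hepatocyte-like cluster 1 held 0.845% and 1.06% of TGFB1 cells and 8.40% and 35.1% of control cells. AFP was at 83.8 ± 6.83 against 476 ± 63.5 CPM. The part of these differences in cells was not tested either.

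By class, TGFB1 gave no call in mesenchymal-like cells and 3 calls outside them. In mesenchymal-like cells, where 0.182% of genes passed, HMGCS1 had an estimate of -0.92 (unadjusted p = 0.0111, edgeR adjusted p = 0.295) and DHCR7 of -0.65 (unadjusted p = 0.0185, adjusted p = 0.332), and DESeq2 called none of the 7 either. Without control replicate 2, HMGCS1 (-1.47, adjusted p = 1.92e-05), FDFT1 (-0.86, adjusted p = 0.014) and INSIG1 (adjusted p = 0.00114) passed there. In the other cells, where 19.8% passed, HMGCS1 (-0.998, edgeR adjusted p = 0.0369), DHCR7 (-0.85, adjusted p = 0.0285) and INSIG1 (-0.94, adjusted p = 0.0497) were lower. All 3 calls there were lost without TGFB1 replicate 1 or replicate 2, and without control replicate 2 LSS was called lower as well and SQLE called higher (0.46, edgeR adjusted p = 0.0103). The groups held different cells there: unnamed cluster 7 took 63.4% and 78.5% of TGFB1 cells and 0.18% and 1.78% of control cells. The controls differed from each other too, with unnamed cluster 0 at 69.0% of replicate 1 and 3.46% of replicate 2, and hepatocyte-like cluster 1 at 8.40% and 35.1%. The part of these clusters was not tested. Whether the effect differs between the classes was not tested, and the estimates for HMGCS1 were -0.92 and -0.998. Within mesenchymal-like cluster 5, HMGCS1 stood at 32.9 and 25.8 CPM with TGFB1 against 99.5 and 42.0 CPM, from 55 to 114 counts per library.

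The further pathway genes with TGFB1 were mostly without a call, with 6 lower and 3 higher of 56, a share no larger than the 22.2% of all genes that passed. SREBF2, which encodes SREBP2, ranged from 15.3 to 18.2 CPM with TGFB1 and from 37.8 to 81.7 CPM in the controls, and fell by 1.59 on the log2 scale (edgeR adjusted p = 0.00582); it was the 1 called of 8 processing genes. Of 8 sterol enzymes LBR fell (-0.55, adjusted p = 0.0306), and of 7 uptake genes TMEM97, which binds NPC1, fell (-2.81, adjusted p = 6.36e-05). ABCG1 (2.54, adjusted p = 5.95e-05) and ABCA1 (1.52, adjusted p = 0.000132), which export cholesterol, rose, while SOAT1 (-1.23, adjusted p = 0.00103) and CYP46A1 (-3.25, adjusted p = 0.0146) fell. CYP46A1 had only 6 and 7 counts with TGFB1, against 30 and 84 in the controls. FADS2 fell (-1.10, adjusted p = 0.0265) and DHDDS rose (0.73, adjusted p = 0.0486).

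In ULA organoids, 2 of 7 genes were lower on day 34 than on day 21, where 15.6% of 22261 genes passed. FDFT1 stood at 286, 276 and 311 CPM on day 21 and at 148 and 188 CPM on day 34, with an estimate of -0.91 (log2 scale, SE 0.190, edgeR adjusted p = 0.0215). DHCR7 stood at 127, 114 and 100 CPM against 64.2 and 73.2 CPM, with an estimate of -0.84 (SE 0.171, edgeR adjusted p = 0.0196). Neither gene's groups overlapped. The estimates of HMGCS1 (-0.30), IDI1 (-0.38), INSIG1 (-0.25), SQLE (-0.17) and LSS (0.01) did not pass, and their libraries overlapped except for LSS, at 33.8 to 38.8 CPM on day 21 and 39.3 and 39.5 CPM on day 34. Both calls were lost when any 1 day 21 library was left out (edgeR adjusted p from 0.0569 to 0.111).

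In hepatocyte-like cluster 3 of the ULA libraries, FDFT1 stood at 157 CPM on day 34 against 197 to 272 CPM and DHCR7 at 60.4 against 65.0 to 85.7 CPM in day 34 replicate 2, while HMGCS1 stood at 194 against 164 to 184 CPM. Day 34 replicate 1, with 32 cells there, did not follow for DHCR7 (96.1 CPM, 78 counts), and its FDFT1 was 150 CPM. The cells differed between the days, and age and the dissociation, which also differed, cannot be told apart: the gut epithelial markers summed to 1812 ± 257 CPM on day 21 and 77.7 ± 92.9 on day 34, the cycling markers to 1594 ± 152 and 858 ± 210, the hepatocyte markers to 2944 ± 218 and 521 ± 591, and the squamous markers to 34.1 ± 9.15 and 1308 ± 1148. The day 34 libraries also differed from each other: clusters 6 and 13 held 36.1% and 44.3% of replicate 1 and under 1% of replicate 2, while clusters 10, 14 and 15 held 15.1%, 35.4% and 11.5% of replicate 2 and under 1% of replicate 1. Cluster 4 was in both, at 15.1% and 27.6%. The part of these cells was not tested. Of the other lists, ACAT2 (-0.99, edgeR adjusted p = 0.0125), EBP (-0.86, adjusted p = 0.039), MSMO1 (-0.58, adjusted p = 0.0472) and TMEM97 (-0.96, adjusted p = 0.015) were lower on day 34. MBTPS1, the Golgi protease that makes the first cut in SREBP2 (0.84, adjusted p = 0.0119), and NPC1 (0.66, adjusted p = 0.0373) were higher. CH25H had 2, 0 and 1 counts on day 21 and 134 and 131 on day 34. NR1H3, SOAT1, SOAT2, COQ2 and PDSS1 were lower, with log2 fold changes from -1.40 to -0.76.

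Across the 14 OS libraries, 6 of the 7 genes varied together. Pearson's r of each gene with the mean of the other 6, on log2(CPM + 1), was 0.967 for INSIG1, 0.962 for FDFT1, 0.896 for HMGCS1, 0.826 for SQLE, 0.779 for IDI1 and 0.777 for DHCR7. LSS was lowest at 0.302, and its r to single members ran from -0.05 with IDI1 and -0.03 with SQLE to 0.432 with HMGCS1, 0.449 with FDFT1 and 0.541 with DHCR7. The libraries share treatments, references and depth, and their cells differed as well. The gut epithelial markers, for 1, summed to 190 ± 6.64 CPM with TGFB1 and to 20436 ± 1377 with OA. The r values thus describe the set and carry no test, and the part of the cells present was not tested. Of the 10 other genes most like the mean of the members, among 8729 with a mean of at least 10 CPM, 8 were FLVCR1 (r = 0.972), CEACAM6 (0.971), TMPRSS4 (0.962), GUCY2C (0.959), CD302 (0.958), RFLNA (0.957), APOB (0.957) and MEP1A (0.957). SCD, which desaturates fatty acids, had rank 12, and SREBF2 had r = 0.621 and rank 671.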

How the data were processed

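For each library the authors deposited a matrix of UMI counts, genes by barcodes, unnormalized per the file headers and its whole-number values. The submitters' processing notes name bcl2fastq, Cell Ranger 3.0.2, Scanpy and the build GRCh38, while Cell Ranger 6.0.2 stands in the headers for OA, its control and untreated. Each deposited barcode held at least 500 UMIs. Gene positions were matched to the reference by Ensembl identifier.

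Barcodes with under 500 genes or over 20% mitochondrial counts were dropped and the rest summed per library, predicted doublets included; removing the highest Scrublet scores at 0.8% per 1000 barcodes (2.75% to 10.7% of cells) was an alternative, since Scrublet's own threshold marked at most 0.84% of cells outside 1 library. Levels are CPM over the 32703 identifiers common to all libraries. Tests used edgeR 4.0.16 (quasi-likelihood, TMM, its low-count filter; R 4.3.3), with the 14 OS libraries in 1 fit and the 5 ULA libraries in another, and DESeq2 1.42.0 as an alternative; the threshold was an adjusted p of 0.05 over all genes tested. On simulated counts of 19366 genes, 100 genes drawn at random were changed by 1 and 100 by 2 on the log2 scale. With the OA design 15% and 77% of these were called, with the PA design 12% and 63%, and with the TGFB1 design 16% and 62%. Far fewer genes changed there than were called with OA or TGFB1, and they were not drawn at the levels of the members. These shares are therefore not the share of members that the tests would find.

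Each experiment was clustered separately (scanpy 1.11.5) on cells without predicted doublets (2000 variable genes without the gene lists, 30 components, 15 neighbours, leiden resolution 0.5). A cluster was called X-like with at least 3 markers of that class among its 50 leading genes, without a tie for the most, and no more of another class among its first 10. By class, a treatment was tested against its control only within mesenchymal-like cells or within all other cells. The classes were not tested against each other. The names rest on these rebuilt clusters. TGFB1 cluster 9, with shallow cells, and ULA cluster 4, each with 2 mesenchymal markers, stayed outside the class.

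The members and lists were chosen with earlier results of these data known. Named are the 7 members in each comparison; in each of the other 7 lists up to 6 genes past the threshold, by smallest adjusted p, or up to 2 by p where none passed; and the 10 genes most like the members. A few genes are not reported here, and list counts leave them out. Other genes named were chosen after their values were seen. Replicate numbers were checked for pairing: the correlation of same-numbered deviations was -0.428 for TGFB1, 0.147 for PA, 0.057 for OA and -0.334 for ULA, with 2 pairs each, so they were not used as pairs. Alternatives were library size scaling, no low-count filter, stricter and no cell filters, another leiden resolution of 1.0, a replicate block, fits of the compared groups alone and leaving out each library.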

Additional observations from a re-analysis of the deposited data

How the results depend on the processing

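Counts are of the 7 members called. With OA the count was 5, 4 with library size alone, 6 without the low-count filter or with only the groups compared, and 3 to 5 with 1 library left out; among all other cells it was 6, and 5 to 6. With PA it was 0 in every setting, in whole libraries and in both classes. For TGFB1 the count of 1 became 2 with DESeq2, 3 with library size alone, 4 without the low-count filter, 2 with only the groups compared and 0 to 2 with 1 library left out. In mesenchymal-like cells it was 0, and 0 to 3 (3 without TGFB1 control replicate 2), and in the other cells 3, and 0 to 5 (4 lower and 1 higher without TGFB1 control replicate 2). In ULA organoids the count was 2, and 0 to 2. For the OA control against untreated organoids 0 became 1 with DESeq2, 1 without the low-count filter and 0 to 1 with 1 library left out. For the OA effect minus the PA effect 1 became 3 with DESeq2, 3 without the filter, 4 with only the groups compared, and 1 to 2.

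The fit with a replicate block gave 0 for TGFB1, 0 for ULA and 1 for TGFB1 outside mesenchymal-like cells, 5 for OA and no other change of call count; with 2 pairs, numbers shared by the labels alone do not pair libraries. A block with crossed numbers, added after seeing the data, gave 0 for TGFB1. No member called as reported changed sign in any setting.

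Over all genes, the number called ranged from 0 to 162 for PA (9 as reported), from 0 to 702 for the OA control against untreated (111), from 0 to 7166 for ULA (3476), from 1704 to 5554 for TGFB1 (4295), from 5171 to 10547 for OA (8378) and from 2112 to 4918 for the difference (3971). By class it ranged from 0 to 1851 for TGFB1 in mesenchymal-like cells (21) and from 1563 to 9427 outside them (3255), from 0 to 81 (1) and 7 to 372 (19) for PA, and from 6183 to 10069 for OA (9608). Of the 63 group means in CPM, 10 moved by more than 1 SD with the stricter cell filter (by at most 7.67%), 4 with predicted doublets removed (at most 1.08%) and 1 with every listed gene in the denominator (2.84%). PA control replicate 1, the library with the fewest UMIs, held 181, 169 and 148 counts of LSS, INSIG1 and DHCR7, and the part of depth was not tested.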
